A study of Mus musculus with 6 samples.

Results

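The clade B serpins were followed in mouse epidermis during the early response to skin wounding. Members were all gene symbols made of Serpinb and a number, with any copy letter, and 27 of the 47455 symbols in the deposited tables were taken, leaving out 1 further symbol of that form. The wounded group was whole epidermis from skin collected 2 h after 8 punch wounds of 3 mm were made in the back, and the non-wounded group was whole epidermis of unwounded skin from the same animals. Each group held 1 library from each of 3 C57BL/6 mice aged 6 to 8 weeks, so that mouse 1, 2 and 3 each gave a wounded and a non-wounded library. No transgene and no treatment other than wounding is listed, and the body site of the non-wounded skin is not given in the sources used here. All epidermis was freed from dermis with trypsin, a protease of the kind that many serpins inhibit, and the libraries were made by poly-dT capture.

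Serpins are protease inhibitors that work as bait. A protease cuts an exposed stretch near the end of the protein, the reactive centre loop, and is then dragged across the serpin and trapped in a covalent complex. Clade B members lack a cleaved signal peptide and mostly stay in the cytosol and nucleus, where they protect cells from their own or leaked proteases, and many are made by keratinocytes, the main cells of epidermis. The mouse has several copies of the human genes SERPINB1, SERPINB3, SERPINB6 and SERPINB9, and copies tend to differ in the loop, which sets which protease is trapped.

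Of the 27 members, 18 passed the filter on low counts and were tested, 3 had counts but were too low to test, and 6 had a count of 0 in all 6 libraries. In wounded against non-wounded epidermis 9 of the 18 rose and none fell, at a Benjamini-Hochberg adjusted p under 0.05 in edgeR's quasi-likelihood test. Among all 16079 genes tested, 24% rose, 24.4% fell and 48.4% were called in either direction. The 9 that rose were Serpinb5, Serpinb8 and Serpinb11 on chromosome 1, and Serpinb1a, Serpinb1c, Serpinb6a, Serpinb6b, Serpinb6c and Serpinb9 on chromosome 13. All 9 rose in each of the 3 mice, and 5 of them rose at least 2-fold. Serpinb1c among them passed the filter on low counts through the wounded group, so its rise is not independent of the filter. All wounded libraries lay above all non-wounded ones for 9 tested members, against 28.8% of all genes tested, and below them for 1, against 29.7%. The groups overlapped for the other 8. The median log2 fold change of the 18 tested members was 0.53, against -0.03 over all genes tested. At an unadjusted p under 0.05 the same test gave 9 higher and 1 lower, and DESeq2 gave 7 higher and 1 lower, the last being Serpinb3a. With the mouse as a replicate block 8 were called higher and 1 lower, since Serpinb1c and Serpinb6c lost their calls, Serpinb6e was called higher and Serpinb7 lower. With library totals in place of TMM scaling, which moved the median log2 fold change of all genes by -0.32, 4 members were called higher and 5 lower, so the directions given here are relative to TMM. In these bulk libraries fewer cells of a type and less RNA per cell cannot be told apart.

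The libraries held between 20746378 and 26815028 estimated counts. Keratinocyte markers defined the tissue in every library, with 8 suprabasal markers summing to 28772 to 35506 CPM in wounded, against 28711 to 33469 CPM in non-wounded epidermis. CPM are estimated counts scaled to a common library total with TMM factors. The sum of 8 basal markers was 16489 to 17674 CPM in wounded, against 16597 to 19611 CPM in non-wounded libraries, but 3 of the 8 rose and 3 fell. Markers of other cells differed between the groups. The 5 tested fibroblast markers all rose, and the 7 listed summed to 29.8 to 65.4 CPM in wounded against 2.82 to 7.40 CPM in non-wounded libraries. Lum passed the filter on low counts through the wounded group, so its rise is not independent of the filter. The untested Pdgfra and Pdgfrb had 29 and 9 counts over the wounded libraries, against 20 and 10 over the non-wounded ones. The 5 red blood cell markers all rose as well, summing to 97.3 to 164.5 CPM in wounded against 18.9 to 26.1 CPM in non-wounded libraries. Of 7 Langerhans cell markers 4 rose and 1 fell, with sums of 2154 to 2537 CPM in wounded against 1437 to 1527 CPM in non-wounded libraries. Of 5 tested monocyte and macrophage markers 3 rose and 1 fell, with sums over the 7 listed of 28.0 to 37.0 CPM in wounded against 30.4 to 35.7 CPM in non-wounded libraries. Of 8 hair follicle and sebaceous gland markers 3 rose and 1 fell, summing to 4550 to 5647 CPM in wounded against 3624 to 4669 CPM in non-wounded libraries. Their part in the serpin changes was not tested.

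The members lie in 2 clusters, with 11 on chromosome 1 (chr1:106861173-107610484, GRCm38) and 16 on chromosome 13 (chr13:32842092-34002794). Of the 9 tested on chromosome 1, 3 rose and 6 were not called. Of the 9 tested on chromosome 13, 6 rose and 3 were not called. The chromosome 1 cluster carried most of the transcript of the members. Its members summed to 1954 to 2013 TPM, a level scaled for transcript length, in wounded, against 1639 to 1846 TPM in non-wounded libraries. The chromosome 13 members summed to 138.8 to 158.2 TPM in wounded, against 114.9 to 135.0 TPM in non-wounded libraries.

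**Figure D1:**
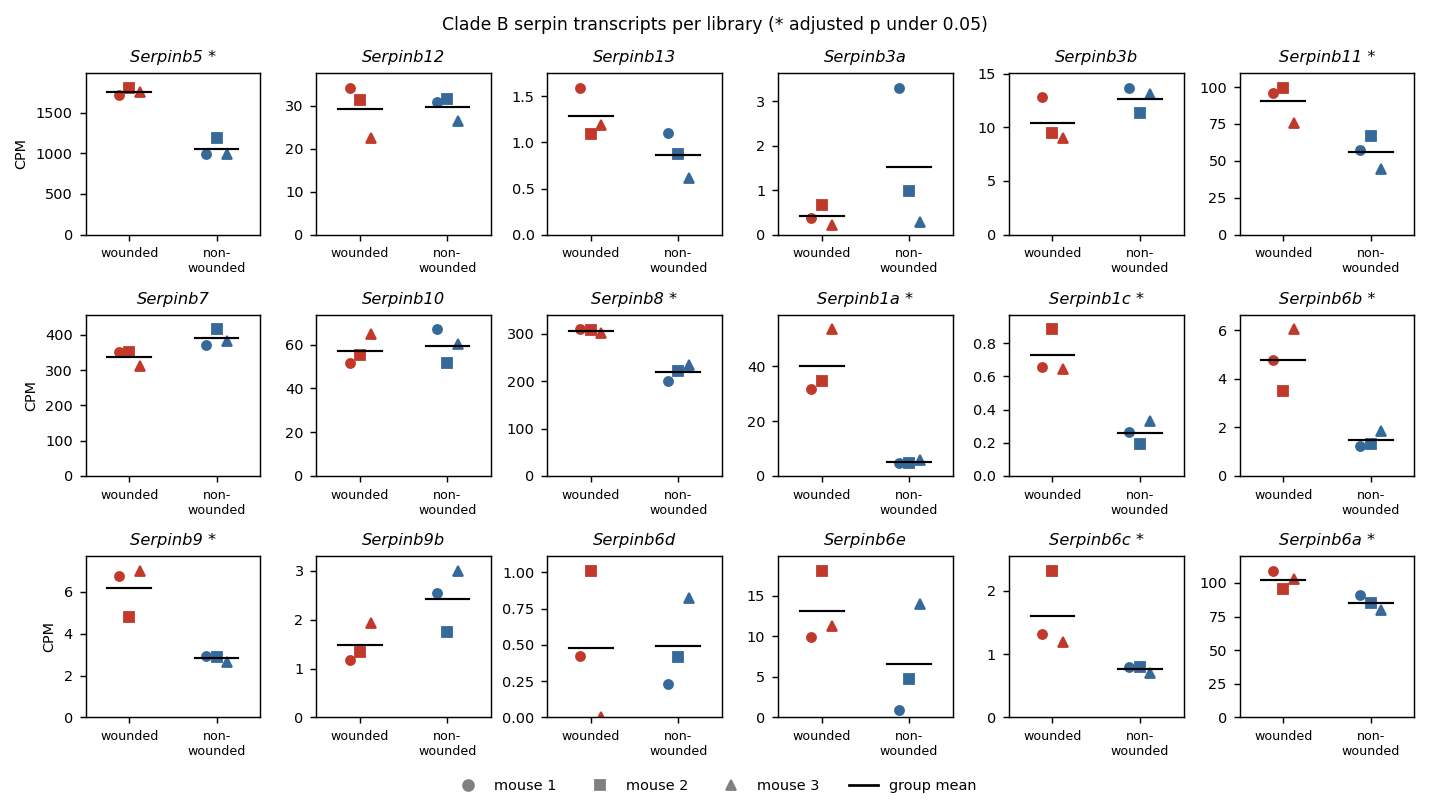
CPM of the 18 tested clade B serpins in each library, with wounded epidermis in red on the left and non-wounded in blue on the right of each panel. Symbols mark the mouse, bars the mean of 3 libraries, and asterisks the 9 members called higher relative to TMM. Serpinb1a stands at 31.9 to 53.5 CPM in wounded, against 4.61 to 5.80 CPM in non-wounded libraries, while the wounded and non-wounded points of Serpinb10 and Serpinb12 overlap. Serpinb6a changed sign when scaled by library totals or in TPM.

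The promoters of Serpinb5, Serpinb8, Serpinb11 and Serpinb7 are shown because letters bound by AP-1, the Fos and Jun factors that act early after wounding, were found in windows of chromosome 1 members and in none of chromosome 13. The windows are the 250 bases before the RefSeq start of the gene in GRCm38.p6, all on the plus strand. In GENCODE M21, Serpinb7 and Serpinb11 start further upstream, at chr1:107399655 and chr1:107361198, so their windows lie within the gene as annotated there. They are chr1:106860925-106861174 for Serpinb5, chr1:107589756-107590005 for Serpinb8, chr1:107362064-107362313 for Serpinb11 and chr1:107422439-107422688 for Serpinb7. Capitals mark matches to TGANTCA. The windows of Serpinb10 and Serpinb12, members that were not called, also held these letters and are not shown.
Serpinb5: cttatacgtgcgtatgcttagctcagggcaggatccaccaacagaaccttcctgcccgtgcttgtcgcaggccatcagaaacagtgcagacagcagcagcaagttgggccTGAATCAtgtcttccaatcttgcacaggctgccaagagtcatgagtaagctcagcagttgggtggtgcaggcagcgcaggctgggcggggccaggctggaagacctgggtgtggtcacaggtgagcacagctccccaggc
Serpinb8: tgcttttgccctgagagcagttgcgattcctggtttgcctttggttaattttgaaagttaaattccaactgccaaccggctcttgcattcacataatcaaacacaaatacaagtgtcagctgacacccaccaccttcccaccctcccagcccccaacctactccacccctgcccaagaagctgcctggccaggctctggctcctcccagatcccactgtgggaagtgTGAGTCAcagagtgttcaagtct
Serpinb11: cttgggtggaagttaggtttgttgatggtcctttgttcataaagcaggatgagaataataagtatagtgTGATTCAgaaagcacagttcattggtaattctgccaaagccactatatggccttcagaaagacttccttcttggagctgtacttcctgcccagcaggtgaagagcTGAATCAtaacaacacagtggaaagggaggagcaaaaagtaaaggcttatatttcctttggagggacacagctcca
Serpinb7: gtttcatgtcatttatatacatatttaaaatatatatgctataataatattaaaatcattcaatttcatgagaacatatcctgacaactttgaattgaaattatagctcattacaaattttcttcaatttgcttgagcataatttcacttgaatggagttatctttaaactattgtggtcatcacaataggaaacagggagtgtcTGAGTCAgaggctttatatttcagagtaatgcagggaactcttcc

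Of the 27 members, 24 had such a window in the RefSeq table. Serpinb1a, Serpinb13 and Serpinb1-ps1 had none, so the motifs were not searched for in them. TGANTCA, searched on both strands, was found in 6 of these 24, namely Serpinb5, Serpinb7, Serpinb8, Serpinb10, Serpinb11 and Serpinb12. Counting each alternative start, 20.69% of 29 member windows held it, against 6.7487% of all 32851 windows of that length. The 6 were among the 10 chromosome 1 members with a window, and none of the 14 chromosome 13 members had the letters. The first base of the match lay 140 bases before the start in Serpinb5, 23 in Serpinb8 and 45 in Serpinb7, and Serpinb11 had a pair of matches at 181 and 76. The letters did not separate members by their change, since they stood in 3 of 8 windowed members that rose and in 3 of 8 tested ones that were not called. TGACGTCA, the cyclic AMP response element, was in no member window and in 1.5464% of all windows, and the NF-kB motif was in none and in 3.8994% of all. TATAAA on the strand of the gene was found in 5 members, Serpinb12, Serpinb3a, Serpinb3b, Serpinb3c and Serpinb1c, and in 7.5919% of all windows. A match is a run of letters and not a measured binding site.

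Serpinb5, or maspin, was the most abundant member and rose. Maspin is an epithelial serpin, known as a tumour suppressor in mammary gland, that does not trap proteases in the usual way. It had 1714, 1805 and 1756 CPM in the wounded libraries of mice 1, 2 and 3, and 988.0, 1184 and 988.4 CPM in the non-wounded ones. Every wounded library was above every non-wounded one. The fold change was 1.67 (log2 0.74, SE 0.10, adjusted p = 2.45e-04). Serpinb5 shared no stretch of 31 bases with a transcript of another gene, and it was called higher in all 15 of the alternative settings tried.

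Serpinb8 and Serpinb11 also rose. Human SERPINB8 inhibits the proprotein convertase furin, and its loss causes peeling skin. Serpinb8 had 309.6, 308.9 and 301.5 CPM in wounded epidermis, and 199.8, 222.7 and 234.4 CPM in non-wounded epidermis. The groups did not overlap, and the wounded libraries lay close together. The log2 fold change was 0.49 (SE 0.09, adjusted p = 0.00138). Serpinb11, which in mouse inhibits trypsin-like proteases, had 95.9, 99.4 and 75.9 CPM in wounded against 57.1, 66.9 and 44.5 CPM in non-wounded libraries. Mouse 3 was lowest in both groups, and each mouse showed the rise, with per-mouse log2 changes of 0.75, 0.57 and 0.77. The log2 fold change was 0.69 (SE 0.15, adjusted p = 0.0043). Each was called in 11 of 15 settings, the exceptions being library totals and the 3 settings on TPM, where both remained above 0.

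Serpinb7 was not called, yet it was the only tested member whose wounded libraries all lay below the non-wounded ones. Serpinb7 is a keratinocyte serpin whose loss in humans causes Nagashima-type palmoplantar keratosis. It had 351.0, 352.3 and 311.4 CPM in wounded epidermis and 371.0, 415.6 and 382.8 CPM in non-wounded epidermis. The log2 fold change was -0.20 (SE 0.09, adjusted p = 0.0922). With the mouse as a replicate block it was called lower (log2 -0.21, adjusted p = 0.0489), and it was also called lower with library totals (-0.53), upper-quartile factors (-0.35) and on each TPM scale (-0.59).

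The other tested single-copy members of chromosome 1 were not called. Serpinb12, whose human counterpart inhibits trypsin-like proteases, had 34.1, 31.2 and 22.5 CPM in wounded, against 30.9, 31.6 and 26.4 CPM in non-wounded libraries (log2 -0.02, adjusted p = 0.945). Serpinb13, whose human counterpart inhibits cathepsins K and L, was near 1 CPM, with 1.59, 1.09 and 1.19 CPM in wounded, against 1.10, 0.88 and 0.62 CPM in non-wounded libraries (log2 0.57, SE 0.40, adjusted p = 0.263). All 3 mice had a Serpinb13 value above 0 on the log2 scale, but the groups overlapped. Serpinb10 had 51.5, 55.3 and 64.7 CPM in wounded, against 67.0, 51.5 and 60.1 CPM in non-wounded libraries (log2 -0.06, adjusted p = 0.730). Serpinb10 is annotated as a polymorphic pseudogene, and an overlapping gene on its own strand shares 7.52% of its 31-base stretches, so its reads can be split.

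**Figure D2:**
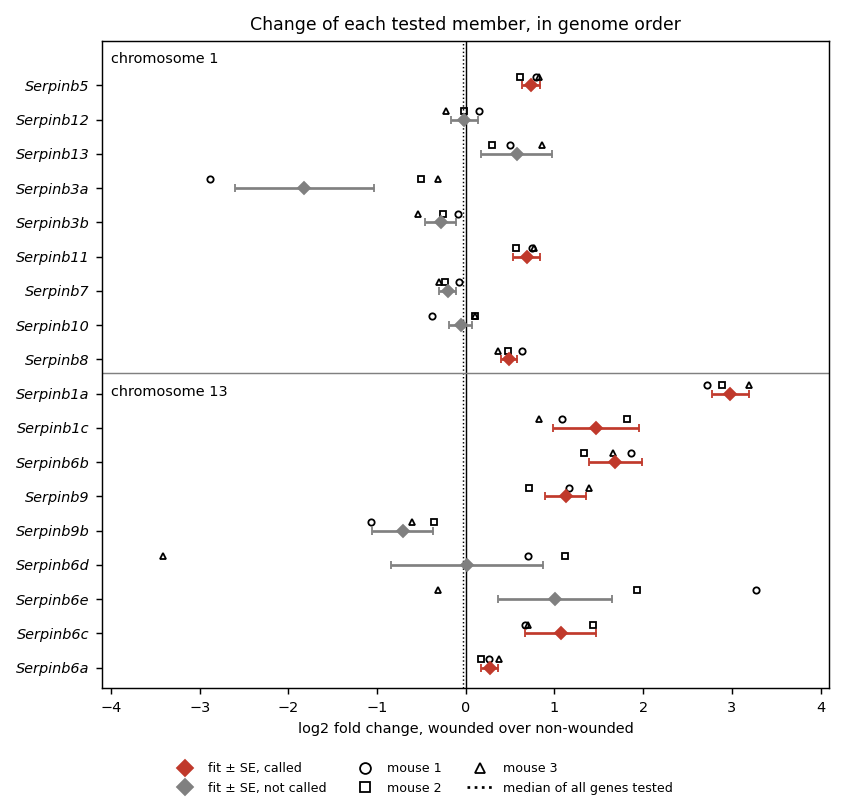
Log2 fold change, wounded over non-wounded, of the 18 tested members in genome order. Diamonds are the edgeR estimate with its SE, red where called, open symbols are the 3 mice, and the dotted line is the median of all genes tested at -0.03. Serpinb1a lies farthest right at 2.98, and the open symbols of Serpinb6d and Serpinb6e lie on both sides of 0. Serpinb6a, at 0.27, turned below 0 with library totals and on the TPM scales.

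The copies on chromosome 13 differed in their reactive centre loops. The stretches below are the 75 coding bases that open with the hinge of the loop. They are shown because these copies matched less there, as scored below, than in the rest of their coding sequence. They come from GENCODE M21 transcripts of GRCm38 and are written in the direction of the gene. Capitals mark bases that differ, position by position, from the first copy listed of the same subfamily. No gap was placed in the stretches shown, so capitals can also mark a shift in length. On the minus strand the stretches are chr13:32842902-32842976 for Serpinb1a, chr13:32881914-32881988 for Serpinb1c, chr13:33918125-33918199 for Serpinb6a and chr13:33880012-33880086 for Serpinb6c. On the plus strand they are chr13:32978201-32978275 for Serpinb6b, chr13:33015693-33015767 for Serpinb9 and chr13:33039796-33039870 for Serpinb9b.
Serpinb1a: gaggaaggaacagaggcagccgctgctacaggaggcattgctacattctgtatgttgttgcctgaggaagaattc
Serpinb1c: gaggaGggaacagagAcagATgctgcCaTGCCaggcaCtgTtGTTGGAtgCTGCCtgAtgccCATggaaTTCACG
Serpinb6a: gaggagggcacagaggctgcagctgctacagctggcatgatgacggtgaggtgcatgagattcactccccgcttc
Serpinb6b: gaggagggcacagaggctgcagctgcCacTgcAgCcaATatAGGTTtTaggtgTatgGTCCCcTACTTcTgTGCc
Serpinb6c: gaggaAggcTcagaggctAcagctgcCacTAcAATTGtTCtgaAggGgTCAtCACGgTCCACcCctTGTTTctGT
Serpinb9: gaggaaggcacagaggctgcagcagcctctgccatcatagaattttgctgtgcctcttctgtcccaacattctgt
Serpinb9b: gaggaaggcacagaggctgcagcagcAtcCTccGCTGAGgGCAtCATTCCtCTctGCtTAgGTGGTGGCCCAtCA

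Serpinb1c matched Serpinb1a at 57.33% of the loop stretch and at 90.86% of the remaining coding sequence. Serpinb6b and Serpinb6c matched Serpinb6a at 64% and 53.33% of the stretch, against 86.89% and 88.01% of the rest. Serpinb9b matched Serpinb9 at 50.67% of the stretch and 86.82% of the rest. Matches in these stretches were counted without gaps, so a shift in length lowers them. Serpinb1c, for example, carries the gaattc that closes the Serpinb1a stretch, but slightly earlier. The percentages of the stretch and of the rest are therefore not strictly comparable. Over whole coding sequences, pairs within a subfamily were between 77.11% identical, the lowest pair of Serpinb9 copies, and 98.67%, the highest such pair. The 285 pairs across subfamilies and single genes were 56.62% to 69.31% identical.

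Serpinb1a showed the largest rise of the 18 tested members. Mouse Serpinb1a inhibits the neutrophil proteases elastase, proteinase 3 and cathepsin G. It had 31.9, 34.7 and 53.5 CPM in wounded epidermis, and 4.78, 4.61 and 5.80 CPM in non-wounded epidermis. Every mouse showed the rise, with per-mouse log2 changes of 2.72, 2.89 and 3.19. The fold change was 7.91 (log2 2.98, SE 0.21, adjusted p = 3.71e-06), and it was called higher in all 15 alternatives. In length-scaled terms Serpinb1a was the seventh member in wounded epidermis, at 18.8 to 32.8 TPM, and the tenth in non-wounded epidermis, at 3.41 to 4.41 TPM.

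Neutrophil markers were scarce in both groups. Of 12 listed, 4 were tested, and all 4 rose. S100a8 and Csf3r averaged 0.40 and 0.22 CPM in non-wounded libraries and passed the filter on low counts through the wounded group. Their rise is thus not independent of the filter. The sum of the 12 was 9.97 to 14.6 CPM in wounded, against 2.24 to 4.76 CPM in non-wounded libraries. Ly6g, which defines mouse neutrophils, was at 0 in all libraries. The part of neutrophils in the rise of Serpinb1a was not tested. Transcripts of the neutrophil proteases were close to absent, and the proteins were not measured. Elane had 0 counts in the wounded and 1 in the non-wounded libraries together. Prtn3 had 19 in the wounded and 16 in the non-wounded ones, and Ctsg was at 0 in all.

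The other Serpinb1 copies were scarce. Serpinb1c, the other tested copy, had 14.4, 21.2 and 12.2 counts in wounded, against 7.28, 5.07 and 8.00 counts in non-wounded libraries. It was called higher (log2 1.47, SE 0.49, adjusted p = 0.0298), with no overlap between the groups. Serpinb1c passed the filter on low counts through the wounded group, so neither its rise nor the lack of overlap is independent of the filter. The call was lost with the replicate block (adjusted p = 0.0532) and on leaving out any 1 of the 6 libraries (log2 1.28 to 1.65, adjusted p = 0.0545 to 0.132), and it was made in 4 of the 15 alternatives. Serpinb1b had 4.05 counts over the 3 wounded and 5.06 over the 3 non-wounded libraries and was not tested. Serpinb1-ps1, a pseudogene copy, was at 0 counts in wounded, against 1 in non-wounded epidermis, and was not tested. Serpinb1a shared 10.2% of its 31-base stretches with other genes and Serpinb1c 11.8%, so reads can be split between them. The 4 copies summed rose by log2 2.92 (SE 0.21, adjusted p = 3.73e-06), and Serpinb1a was 97.5% to 98.5% of the summed counts in wounded and 93.0% to 94.5% in non-wounded libraries.

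Of the 5 Serpinb6 copies, Serpinb6a, Serpinb6b and Serpinb6c rose, and Serpinb6d and Serpinb6e were not called. Serpinb6a, a broad inhibitor of trypsin-like proteases and cathepsin G whose loss causes hearing loss in mice, was the abundant copy. It had 109.0, 95.3 and 103.0 CPM in wounded epidermis, and 90.8, 84.9 and 79.5 CPM in non-wounded epidermis. The lowest wounded library, of mouse 2, lay just above the highest non-wounded one, of mouse 1, and the change was the smallest of the 9 called, at log2 0.27 (SE 0.09, adjusted p = 0.0378). It turned below 0 with library totals (-0.06) and on the TPM scales (-0.07), and the call was lost on leaving out any of the wounded libraries, or that of mouse 2 or mouse 3 among the non-wounded ones (log2 0.22 to 0.31, adjusted p = 0.0565 to 0.121). It was called in 4 of the 15 alternatives. Serpinb6a shared 29.0% of its 31-base stretches with other genes, 13.1% with Nqo2, which overlaps it on the other strand, so its counts are uncertain where the counting did not use strand.

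Serpinb6b, which in mouse inhibits granzyme A, was a rare copy that rose. It had 4.78, 3.49 and 6.04 CPM in wounded libraries, and 1.25, 1.33 and 1.85 CPM in non-wounded libraries. The log2 fold change was 1.69 (SE 0.30, adjusted p = 0.00116), and 14 of 15 alternatives called it. All 3 mice moved the same way, by log2 1.86, 1.34 and 1.66. Serpinb6c had 1.31, 2.31 and 1.19 CPM in wounded, and 0.80, 0.80 and 0.70 CPM in non-wounded libraries. Mouse 2 was the highest wounded library, and the groups did not overlap. The call of Serpinb6c (log2 1.07, SE 0.40, adjusted p = 0.0496) was lost with the replicate block (adjusted p = 0.0611) and held on leaving out the wounded library of mouse 3 alone, with values of 0.69 to 1.21 and adjusted p of 0.0613 to 0.261 on leaving out any of the others. In all, Serpinb6c was called in 2 of the 15 alternatives, the other being RLE factors. Serpinb6c shared 22.9% of its 31-base stretches with other genes.

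Serpinb6e varied widely between mice and was not called. It had 9.93, 18.05 and 11.27 CPM in the wounded libraries of mice 1, 2 and 3, and 0.95, 4.69 and 14.02 CPM in the non-wounded ones. The non-wounded library of mouse 3 was above 2 of the 3 wounded libraries, while that of mouse 1 was far below all of them. The log2 change was 3.28 in mouse 1, 1.93 in mouse 2 and -0.31 in mouse 3. The fit gave 1.01 (SE 0.64, adjusted p = 0.220), the replicate block gave 1.5 (adjusted p = 0.0354), and leaving out the non-wounded library of mouse 3 gave 2.21 (adjusted p = 0.00949). Serpinb6e shared 4.49% of its 31-base stretches with other genes. Serpinb6d had 9, 24 and 0 counts in wounded, against 6, 11 and 20 counts in non-wounded libraries (log2 0.02, SE 0.86, adjusted p = 0.988). With the 5 copies summed, the wounded libraries had 125.4, 120.2 and 121.5 CPM and the non-wounded ones 94.0, 92.1 and 96.9 CPM. That sum rose by log2 0.38 (SE 0.08, adjusted p = 0.00363), with an adjusted p of 0.631 and a log2 value of 0.05 under library totals.

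Serpinb9 rose and its neighbour Serpinb9b was not called. Mouse Serpinb9 inhibits granzyme B and protects cytotoxic lymphocytes, and cells they meet, from it, and Serpinb9b inhibits granzyme M. Serpinb9 had 6.75, 4.80 and 7.01 CPM in wounded, against 2.96, 2.89 and 2.63 CPM in non-wounded libraries. No wounded library reached down to a non-wounded one, and the log2 fold change was 1.12 (SE 0.23, adjusted p = 0.0025), called in 13 of 15 alternatives. Serpinb9b had 1.17, 1.35 and 1.94 CPM in wounded, against 2.54, 1.75 and 3.00 CPM in non-wounded libraries. It was below 0 in all 3 mice, with a log2 value of -0.71 (SE 0.34, adjusted p = 0.110), but the groups overlapped. Serpinb9 made up 78.1% to 85.2% of the summed Serpinb9 counts in wounded and 46.7% to 62.3% in non-wounded libraries. The difference between the pair was not tested. Serpinb9 shared 4.94% and Serpinb9b 10.995% of their 31-base stretches with other genes.

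Serpinb9c, Serpinb9d, Serpinb9e, Serpinb9f and Serpinb9g were at 0 counts in all 6 libraries. A count of 0 allows up to 3 counts, or 0.114 to 0.162 CPM, in a library. Serpinb9f and Serpinb9g share 87.3% and 67.9% of their 31-base stretches with other genes. The 7 copies summed rose by log2 0.54 (SE 0.20, adjusted p = 0.0489). That call was lost on leaving out any library other than the wounded one of mouse 2, with log2 values of 0.41 to 0.59 and adjusted p of 0.0683 to 0.155. Markers of dendritic epidermal T cells, which carry granzymes, went the other way, with 6 of 9 lower and 1 higher, and a sum of 152.9 to 172.5 CPM in wounded against 194.4 to 230.7 CPM in non-wounded libraries. Their part in the Serpinb9 values was not tested. Gzmb, the target of Serpinb9, had 19 counts over the wounded and 13 over the non-wounded libraries.

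The Serpinb3 copies, counterparts of the human squamous cell carcinoma antigens, which inhibit cysteine and serine proteases, were not called. Serpinb3b had 12.8, 9.47 and 9.003 CPM in wounded, against 13.7, 11.3 and 13.1 CPM in non-wounded libraries (log2 -0.28, SE 0.18, adjusted p = 0.212). Serpinb3a had 0.37, 0.67 and 0.22 CPM in wounded, against 3.30, 0.99 and 0.29 CPM in non-wounded libraries. The non-wounded library of mouse 1 stood apart for Serpinb3a, and the group values overlapped. The log2 fold change of Serpinb3a was -1.82 (SE 0.78, adjusted p = 0.0784), which became -0.59 without that library and -2.31 (adjusted p = 0.0170) without the non-wounded library of mouse 3. Serpinb3c had 20.3 counts over the wounded and 31.1 over the non-wounded libraries and was not tested, and Serpinb3d was at 0 in all. Serpinb3a and Serpinb3b share 33.5% and 35.4% of their 31-base stretches with other genes, and Serpinb3b overlaps Serpinb3c on the same strand. Against Serpinb3b, Serpinb3a was 94.67% identical in the loop stretch and 93.0% in the rest of the coding sequence. Serpinb3c was 77.33% and 93.91% identical, and Serpinb3d 62.67% and 89.03%. These loop values were also counted without gaps. The 4 copies summed gave log2 -0.38 (SE 0.19, adjusted p = 0.117), and the sum was called lower with the replicate block (adjusted p = 0.0353) or when mouse 1 was left out of the wounded group (-0.55, adjusted p = 0.0399).

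**Figure D3:**
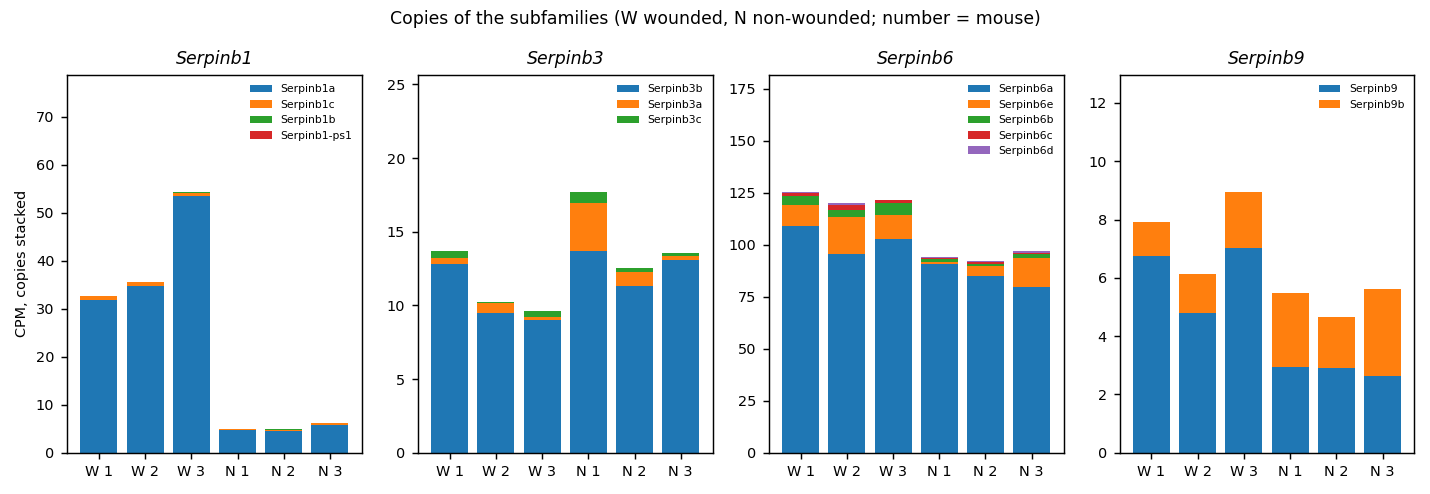
CPM of the copies of the 4 subfamilies stacked for each library, wounded (W) on the left and non-wounded (N) on the right, with the mouse number. Serpinb1a fills 97.5% to 98.5% of the Serpinb1 counts in wounded libraries. The Serpinb6e share is largest in the non-wounded library of mouse 3 among the non-wounded libraries. Serpinb9 takes 78.1% to 85.2% of the Serpinb9 counts in wounded and 46.7% to 62.3% in non-wounded libraries.

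Scaled by length, the order of the members was much alike in the groups. Serpinb5 led in both, at 1178 to 1251 TPM in wounded, against 809.8 to 955.1 TPM in non-wounded epidermis. Serpinb8 followed in wounded epidermis at 338.9 to 375.9 TPM and Serpinb7 was the third at 253.4 to 298.2 TPM, and neither overlapped its neighbour in the order. In non-wounded epidermis Serpinb7 came next after Serpinb5 at 383.3 to 446.9 TPM and Serpinb8 after it at 279.4 to 343.9 TPM. Serpinb6a was the fourth in both groups, at 96.5 to 107.7 TPM in wounded, against 102.1 to 114.1 TPM in non-wounded libraries, followed by Serpinb10 and Serpinb11. Serpinb10 and Serpinb11 overlapped in wounded but not in non-wounded epidermis. Lower in the order most neighbours overlapped.

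Among the 27 members, maspin took a larger share of the summed TPM in wounded than in non-wounded epidermis. The symbol left out of the members is not in this sum, so these are not shares of all clade B transcript. Serpinb5 made up 56.2%, 56.7% and 57.6% of the summed TPM of the 27 members in wounded libraries, against 46.2%, 48.7% and 43.7% in non-wounded libraries. The ranges did not overlap. Serpinb7 made up 11.7% to 14.2% in wounded and 21.8% to 23.0% in non-wounded libraries, also without overlap. The ranges of Serpinb8 overlapped, at 16.2% to 17.3% in wounded and 15.2% to 18.5% in non-wounded libraries. The members together reached 2096 to 2171 TPM in wounded, against 1762 to 1961 TPM in non-wounded libraries. With 3 libraries a group, 0.1 is the smallest two-sided p that exact enumeration allows, and these shares were given no test.

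**Figure D4:**
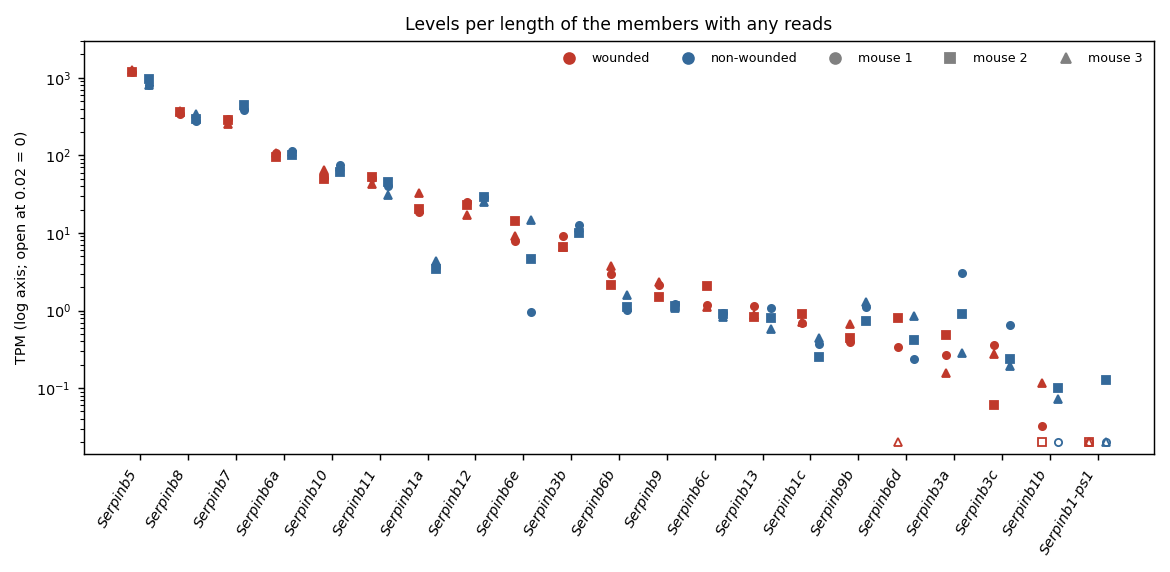
TPM of the members with any reads, on a log axis, in order of their mean in wounded epidermis, with wounded libraries in red on the left and non-wounded in blue on the right of each pair. Symbols mark the mouse, and open symbols at 0.02 stand for 0. Levels run from 1178 to 1251 TPM for Serpinb5 in wounded libraries down to under 1 TPM for Serpinb1b and Serpinb1-ps1.

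The proteases that clade B serpins trap, or that share their cells, were read from the same test. Of 25 listed, 15 were tested, 7 rose and 1 fell, where 24% of all genes tested rose and 24.4% fell. Furin, the convertase that human SERPINB8 inhibits, had 217.7, 249.8 and 276.7 CPM in wounded, against 70.1, 68.4 and 73.1 CPM in non-wounded libraries, a log2 change of 1.81 (SE 0.10, adjusted p = 1.47e-06). The log2 change of Serpinb8 was 0.49, and the difference between Furin and Serpinb8 was not tested. St14, which encodes the membrane protease matriptase, averaged 181.2 ± 13.2 CPM in wounded, against 93.8 ± 4.09 CPM in non-wounded libraries (SD, n = 3 each, log2 0.95, adjusted p = 2.36e-05). The kallikrein Klk7, a desquamation protease, averaged 1358 ± 77.7 CPM in wounded, against 829.5 ± 60.4 CPM in non-wounded libraries (SD, n = 3 each, log2 0.71, adjusted p = 2.25e-04).

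Ctsl, the cathepsin that human SERPINB13 inhibits, and Ctsb, another lysosomal cysteine protease, rose by log2 0.66 (adjusted p = 3.78e-04) and 0.43 (adjusted p = 0.00196). Ctsl averaged 429.5 ± 18.1 CPM in wounded, against 272.6 ± 27.2 CPM in non-wounded libraries, and Ctsb 492.2 ± 5.08 CPM in wounded, against 365.9 ± 15.4 CPM in non-wounded libraries (SD, n = 3 each). Casp1, the caspase that activates interleukin-1 beta, was the 1 that fell, with 13.3, 18.7 and 12.4 CPM in wounded, against 31.6, 36.5 and 32.8 CPM in non-wounded libraries (log2 -1.18, adjusted p = 1.96e-04). Of the proteases above 100 CPM, Klk5, Tmprss4 and Ctsh were not called, with log2 values of 0.02, -0.14 and 0.24. With the replicate block, 3 listed proteases were called lower instead of 1.

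Of 24 listed serpins of other clades, 14 were tested, 4 rose and 5 fell, beside 24% and 24.4% of all genes tested. Serpinf2 and Serpina3c, which fell, passed the filter on low counts through the non-wounded group. The falls of Serpinf2 and Serpina3c are thus not independent of the filter. Serpina3n, an acute-phase inhibitor, rose by log2 3.19 (adjusted p = 5.82e-04), and Serpine2 by 1.07 (adjusted p = 0.0156). Serpina3h, the most abundant of those that fell, averaged 44.4 ± 4.48 CPM in wounded, against 245.2 ± 45.9 CPM in non-wounded libraries (SD, n = 3 each, log2 -2.46, adjusted p = 1.60e-06). Serpina3i (log2 -1.76) and Serpina3g (log2 -1.03) fell as well, and the Serpina3 copies share sequence, so their counts are uncertain. Serpina12, the most abundant serpin of another clade, averaged 313.4 ± 17.4 CPM in wounded, against 266.5 ± 16.4 CPM in non-wounded libraries and was not called (log2 0.23, adjusted p = 0.0525).

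**Figure D5:**
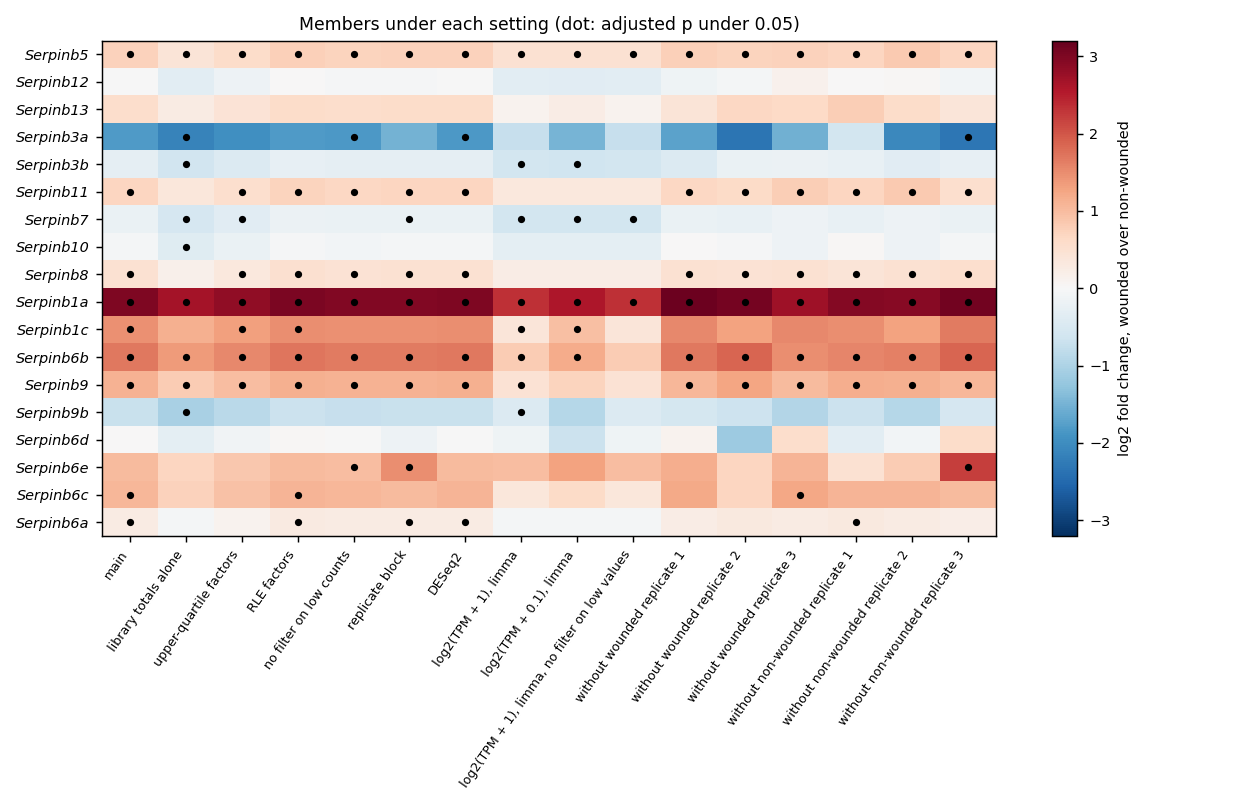
Log2 fold change, wounded over non-wounded, of each tested member under the settings tried, coloured from blue (lower in wounded) to red (higher in wounded), with a dot where the adjusted p was under 0.05. Serpinb5 and Serpinb1a carry a dot in all columns. Serpinb6a turns below 0 with library totals and on the TPM scales, and Serpinb7 carries dots in 6 of the 15 alternatives.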

How the data were processed

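Poly-dT captured RNA of 6 epidermis libraries was quantified by the authors with Salmon on mm10, per the submitters' processing notes and the deposited methods sheet, which also name edgeR. Which versions, annotation release and strand setting they used is not given in the sources used here. The deposited files give estimated counts and TPM per gene symbol. Salmon divides reads among similar transcripts, so near-identical copies are uncertain.

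Estimated counts were rounded to whole numbers, filtered with filterByExpr, TMM-scaled and tested without a mouse term in edgeR 4.0.16 (R 4.3.3) by its quasi-likelihood test, with Benjamini-Hochberg adjustment over 16079 genes. The procedure was tested on simulated counts. CPM use the total over genes kept times the TMM factor. The SE is the log2 fold change over the square root of F. Alternatives were other scalings, DESeq2 1.42.0, limma 3.58.1 on log2(TPM + 1) or log2(TPM + 0.1), no filter, the mouse as a replicate block, each library left out, and copies summed. Shared 31-base stretches and loop stretches came from GENCODE M21 transcripts, and promoters from RefSeq (GRCm38.p6). Gene coordinates are those of GENCODE M21, 1-based.

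The labels place libraries of a number in 1 mouse, so they are paired. Same-mouse deviations from group means correlated at 0.152, 0.0409 and 0.167 over genes. The main fit has no mouse term, so its p-values measure the spread between libraries within a group, with information shared across genes. They do not measure the spread of the wound change between these 3 mice. The replicate block is the fit that uses the pairing. Libraries of a group differed beyond counting noise (chi-square per gene of 13.7 to 37.1). Floors of 3 counts cover counting error only.

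The members, lists and naming rule (tested members, plus, in other lists, the 3 called genes with the smallest p per direction and those above 100 CPM) were chosen with earlier results of these data known. A gene that this rule takes is not reported here. The loop stretches, and which promoters are shown, were chosen after the values were seen.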

Additional observations from a re-analysis of the deposited data

How the results depend on the processing

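Against 9 members called higher and 0 lower, library totals alone gave 4 and 5, log2(TPM + 1) 5 and 3, log2(TPM + 0.1) 4 and 2, and log2(TPM + 1) with no filter 2 and 1. Upper-quartile factors, no filter on low counts, the replicate block and DESeq2 each gave 1 lower, with 7, 7, 8 and 7 higher, and RLE factors gave 9 and 0. Leaving out 1 library gave 6 to 7 higher and 0 to 1 lower. The replicate block, which uses the pairing by mouse, lost the calls of Serpinb1c (1.47) and Serpinb6c (1.02), gained Serpinb6e higher (1.5) and Serpinb7 lower (-0.21), and changed no other member's call. Relative to TMM, library totals moved the median log2 fold change of all genes by -0.32, upper-quartile factors by -0.15, log2(TPM + 1) by -0.29 and log2(TPM + 0.1) by -0.33. Over all genes, library totals gave 2168 higher and 6655 lower against 3859 and 3917, and the TPM settings 1904, 1895 and 1561 higher. Leaving out 1 library gave 3153 to 3597 higher and 3147 to 3600 lower.

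Serpinb6a reversed under library totals (-0.0568), log2(TPM + 1) (-0.0651, also with no filter) and log2(TPM + 0.1) (-0.0657). The Serpinb3 sum was called lower under library totals (-0.71), upper-quartile factors (-0.53), the replicate block (-0.38), log2(TPM + 1) (-0.67) and log2(TPM + 0.1) (-0.73), and ranged from -0.55 to -0.23 with 1 library left out. The Serpinb6 sum was not called under library totals (0.0504) or on the TPM scales (0.0153 with log2(TPM + 1), with and without the filter, and 0.0155 with log2(TPM + 0.1)). The Serpinb9 sum was not called under library totals (0.22), upper-quartile factors (0.39), no filter (0.52), DESeq2 (0.55), log2(TPM + 1) (0.12, with and without the filter) or log2(TPM + 0.1) (0.16), and ranged from 0.41 to 0.67 with 1 library left out. The Serpinb1 sum kept its call in every alternative tried.

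Target proteases called lower numbered 1, against 5 with library totals, 2 with upper-quartile factors, 2 with no filter, 3 with the replicate block, 6 with log2(TPM + 1), 6 with log2(TPM + 0.1) and 3 with log2(TPM + 1) and no filter. Serpins of other clades called higher numbered 4, against 2 with library totals and 2 with log2(TPM + 1) and no filter. Beyond scaling and the number of genes or libraries used, the cause was not tested. Depth limits the rarest members, such as Serpinb1c and Serpinb6d with means under 1 CPM in both groups, and 6 members at 0 are not shown to be absent. With 3 mice and 1 time point, small changes such as that of Serpinb6a rest on the scaling.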
